A study of Mus musculus with 4 samples.

Results

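The actin filaments of non-muscle cells and the vimentin filaments beside them are represented here by 10 genes, read in RNA recovered with an antibody against Runx1 and with control IgG. The genes were Actb and Actg1 (the cytoplasmic actins), Pfn1, Cfl1 and Tmsb4x (which handle actin monomers and filament turnover), Tpm1, Tpm2, Tpm3 and Tpm4 (the tropomyosins) and Vim (vimentin). They were chosen by name, with earlier results of these data known, so their shares of calls below are descriptive. All 10 were found among the 55573 gene identifiers of the count table through the GENCODE M21 annotation of mm10. All 10 passed the filter on low counts, which left 12401 genes to test. The material was RNA immunoprecipitation sequencing (RIP-seq), in which an antibody on beads pulls down a protein and the RNA that stays with it is sequenced. The cells were Cd31+ cells (CD31, or Pecam1, is a surface protein of endothelium and some blood cells) sorted from the caudal part of wild-type C57BL/6 embryos at embryonic day 10. There were 2 Runx1 libraries and 2 IgG libraries, and in the labels they differ in the antibody only. Input RNA was not analysed here, so a level in the pull-down cannot be set against the level in the cells. The labels do not tie replicates to separate sorts, so every p-value reflects only how far these libraries spread, and that spread may be technical.

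Actin monomers add to the ends of filaments and leave from them, and the cell sets the balance with proteins that hold, deliver or sever actin. Profilin delivers monomers to growing ends, thymosin beta 4 keeps monomers in reserve, and cofilin severs old filaments. Tropomyosins are coiled rods that lie along the filament and decide which other proteins can use it, while vimentin builds a separate, flexible network typical of endothelial and mesenchymal cells. RUNX1 is a DNA-binding factor that endothelial cells need in order to give rise to blood, and RIP-seq asks which RNAs are recovered with it.

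The cytoplasmic actin genes encode nearly the same protein from different chromosomes, so the letters that tell their RNAs apart decide whether their counts can be read separately. Actb lies at chr5:142903115-142906754 and Actg1 at chr11:120345690-120348542 of mm10, both on the minus strand. The first 60 coding bases, which hold the stretch where the encoded proteins differ, are shown from the GENCODE M21 transcripts, with capitals where the genes differ. Both stretches are exonic, at chr5:142905627-142905686 and chr11:120348032-120348091.
Actb: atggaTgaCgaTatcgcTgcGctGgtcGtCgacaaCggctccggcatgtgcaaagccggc
Actg1: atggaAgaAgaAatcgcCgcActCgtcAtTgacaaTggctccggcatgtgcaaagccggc
These stretches differ at 9 of 60 positions. Over the whole coding sequence of 1125 bases the genes were 88.6% identical, and the longest run without a difference was 62 bases.

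The tropomyosin genes are less alike. The 60 coding bases in which Tpm3 and Tpm4 are most alike are shown because those genes had opposite directions in the comparison below. Capitals mark differences from Tpm3, and each stretch is interrupted by an intron in the genome.
Tpm3: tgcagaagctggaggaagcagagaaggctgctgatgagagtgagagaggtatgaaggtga
Tpm4: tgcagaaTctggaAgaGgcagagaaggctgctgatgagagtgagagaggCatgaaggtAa
Tpm1: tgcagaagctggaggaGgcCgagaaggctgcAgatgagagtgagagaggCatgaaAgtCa
Tpm2: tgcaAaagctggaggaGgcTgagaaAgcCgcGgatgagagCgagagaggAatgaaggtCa
Even here Tpm4 differed from Tpm3 at 5 positions, Tpm1 at 6 and Tpm2 at 9. Over the last 744 coding bases, compared without gaps, Tpm3 and Tpm4 were 65.5% identical, the lowest of the 6 pairs, and their longest shared run was 32 bases. The highest identity was 75.5%, between Tpm1 and Tpm3.

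The Runx1 libraries held 1675488 and 1887301 gene counts, and the IgG libraries 3843318 and 2482045. Levels below are counts per 1000000 gene counts (CPM). All 10 endothelial markers that were read were detected. Detection alone does not tell the cell type, since markers of other types were detected too. The summed level of the endothelial markers was 1557 and 1296 CPM with the Runx1 antibody, against 1604 and 1472 CPM with IgG. Mesenchymal markers, all 10 detected, summed to 1406 and 1487 against 1322 and 1222 CPM in the same libraries. Synthetic spike-in RNAs (the ERCC set) were counted 356 and 378 times per 1000000 gene counts in the Runx1 libraries, and 129 and 175 times in the IgG libraries. How much was added, and when, is not given in the sources used here.

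Actb, Actg1, Tpm3 and Vim, 4 of the 10 genes, were higher with the Runx1 antibody in edgeR's quasi-likelihood test with TMM scaling at a false discovery rate of 0.05, and 0 were lower. Correcting for the length and GC content of transcripts, described below, left 0 of these 4 calls. Among all 12401 genes tested, 0.306% were called higher and 0.339% lower. Among the 2381 genes with a mean of at least 100 CPM, 1.55% were called higher, and 8 of the 10 genes, including all 4 called, are of that abundance. Both Runx1 libraries lay above both IgG libraries for 8 of the 10 genes, against 24.1% of all genes tested, and below them for Tpm4 alone, against 21.3%. The median log2 fold change was 0.74 over the 10 genes, 0.027 over all genes tested and -0.14 over those with a mean of at least 100 CPM.

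These directions are relative to the typical gene of the library, and they turn when the libraries are scaled to their spike-in counts. Under that scaling the median of all tested genes moved to -1.25 and that of the 10 genes to -0.53. Tpm3 alone stayed above 0, none of the 10 genes was called higher, and Tpm1 and Tpm4 were called lower, where 31.6% of all tested genes were called lower. Relative to the median of all genes in that scaling, 9 of the 10 genes stayed above it and Tpm4 stayed below. Every "higher" in the following paragraphs refers to TMM scaling.

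**Figure D1:**
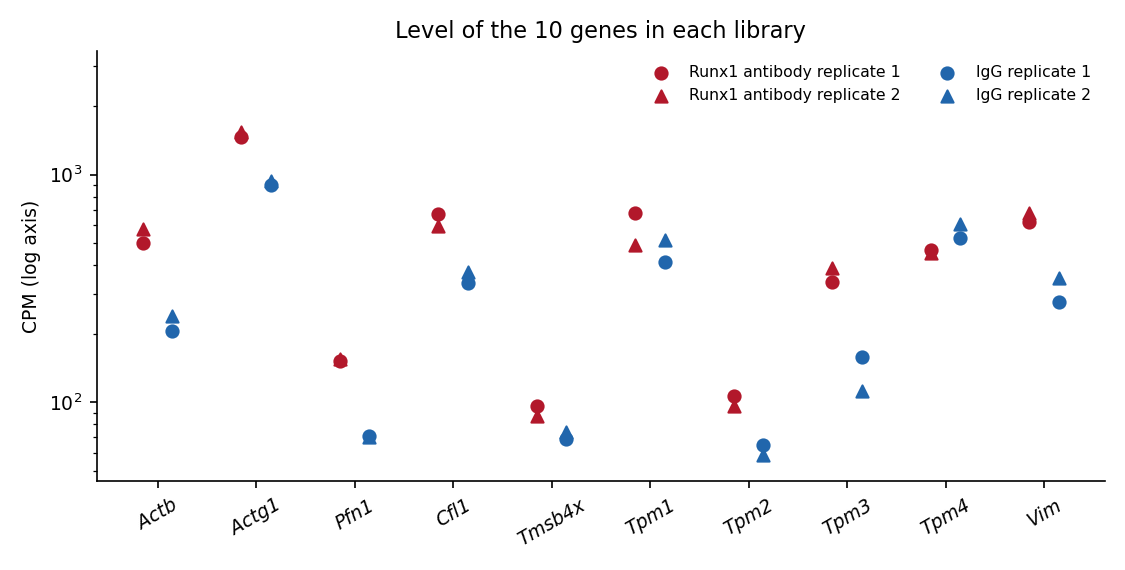
Level of each of the 10 genes in the 4 libraries, in CPM on a log axis; red points are Runx1 antibody libraries and blue points IgG libraries, with circles for replicate 1 and triangles for replicate 2. Actg1 is the most abundant gene in every library, and the red and blue points mix for Tpm1 only; these levels are shares of a library and not spike-in scaled.

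Actb, the cytoplasmic beta-actin and the usual reference gene for RNA amounts, stood at 500 and 579 CPM with the Runx1 antibody, against 206 and 240 CPM with IgG. The groups did not overlap, and the lower Runx1 library was 2.08 times the higher IgG library. The group means were 539 ± 56.3 and 223 ± 24.2 CPM (SD, n = 2), a log2 fold change of 1.25 ± 0.18 (SE) or 2.38-fold (edgeR adjusted p = 0.0310). The counts behind these values were 837 and 1093 against 790 and 595. Per spike-in count Actb overlapped between groups, at 1.40 and 1.53 against 1.60 and 1.37, and its log2 fold change under spike-in scaling was -0.02 ± 0.32 (edgeR adjusted p = 0.974).

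Actg1, the cytoplasmic gamma-actin, was the most abundant of the 10 genes, with 1458 and 1542 CPM with the Runx1 antibody, against 901 and 934 CPM with IgG. Replicates lay within 1.06-fold of each other in both groups, and the groups did not overlap. The means of 1500 ± 59.6 and 918 ± 23.5 CPM (SD, n = 2) gave a log2 fold change of 0.68 ± 0.11 (SE), or 1.60-fold (edgeR adjusted p = 0.0418). Per spike-in count the order was the other way, at 4.10 and 4.08 against 7.01 and 5.34.

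The balance between the actin genes was read within each library. Actb was counted 0.343 and 0.375 times for each Actg1 count with the Runx1 antibody, against 0.228 and 0.257 times with IgG. This ratio, which no scaling of the libraries can change, was 1.48-fold higher with the Runx1 antibody, with no overlap between groups. An exact permutation test of 2 against 2 libraries gave a two-sided p of 0.333, the smallest that its 6 arrangements allow.

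Copies of Actg1 outside the gene could take or give reads. Transcripts of 6 processed pseudogenes matched it over at least 200 bases at 95% identity or more, and together they held 232 counts, 2.08% of those of Actg1. The one with most counts, Gm12715, matched over 1128 bases at 99.6% and stood at 24.5 and 27.6 CPM with the Runx1 antibody, against 7.81 and 12.1 CPM with IgG, again without overlap. The sources used here do not say how reads were divided between gene and copies, so the values of both are uncertain to that extent. Adding the copies to their parent genes brought Actg1 to 0.69 on the log2 scale (edgeR adjusted p = 0.0403).

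Profilin 1 (Pfn1, chr11:70651850-70654644, minus strand), which delivers actin monomers to growing filament ends, stood at 152 and 155 CPM with the Runx1 antibody, against 71.3 and 70.1 CPM with IgG. Its replicates were the closest of all 10 genes, within 1.02-fold in both groups, and the lower Runx1 library was 2.13 times the higher IgG library. It was not called, with a log2 fold change of 1.09 ± 0.28 (SE, edgeR adjusted p = 0.141). The SE comes from a spread that edgeR shares across genes of like abundance, and the counts were 255 and 292 against 274 and 174. DESeq2 called it higher.

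Cofilin 1 (Cfl1, chr19:5490455-5495201, plus strand), the severing protein of non-muscle cells, stood at 668 and 592 CPM against 334 and 374 CPM. The groups did not overlap, and the lower Runx1 library was 1.58 times the higher IgG library. The log2 fold change was 0.80 ± 0.16 (SE), just outside the threshold (edgeR adjusted p = 0.0685). DESeq2 and limma-voom called it higher. Its log2 fold change was 0.69 to 0.87 in the 4 edgeR fits that left out a library. An exon of Snx32 overlaps Cfl1 on the other strand over 468 bases, and Snx32 had 5 counts in all libraries together.

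Thymosin beta 4 (Tmsb4x, chrX:167207093-167209315, minus strand), which holds actin monomers in reserve, stood at 96.1 and 87.4 CPM against 68.7 and 74.1 CPM. The Runx1 libraries were the higher ones, but by 1.18-fold between the nearest pair, and the gene was not called (log2 fold change 0.33 ± 0.32, SE, edgeR adjusted p = 0.723). Its counts were 161 to 264 per library.

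The tropomyosins are described gene by gene. Tpm3 (chr3:90072649-90100902, plus strand), which codes for a widely expressed and a slow-muscle form, stood at 338 and 389 CPM with the Runx1 antibody, against 158 and 112 CPM with IgG. The IgG replicates differed 1.41-fold, the widest gap between replicates among the 10 genes, yet the lower Runx1 library was 2.14 times the higher IgG library. The means were 364 ± 36.5 and 135 ± 32.4 CPM (SD, n = 2). The log2 fold change of 1.40 ± 0.23 (SE), or 2.63-fold, was the largest of the 10 genes (edgeR adjusted p = 0.0456). Under spike-in scaling it was 0.08 ± 0.38 (SE, edgeR adjusted p = 0.881). Per spike-in count Tpm3 overlapped between groups, at 0.950 and 1.03 against 1.23 and 0.643. Tpm3-rs7, a gene whose transcript matches Tpm3 over 1910 bases at 99.2%, stood at 15.5 and 11.7 CPM against 3.12 and 4.83 CPM, and its counts were 3.29% of those of Tpm3. Adding them brought Tpm3 to 1.41 on the log2 scale (edgeR adjusted p = 0.0403).

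Tpm4 (chr8:72134975-72153142, plus strand), a short non-muscle tropomyosin, had the lower values with the antibody. It stood at 468 and 454 CPM with the Runx1 antibody, against 525 and 608 CPM with IgG. It was the only one of the 10 genes with both Runx1 libraries below both IgG libraries. The difference was not called on TMM scaling (log2 fold change -0.33 ± 0.15, SE, edgeR adjusted p = 0.381). Under spike-in scaling it was called lower, at -1.59 (edgeR adjusted p = 0.00168). In that scaling the median of all tested genes was -1.25, and 31.6% of them were called lower.

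Tpm1 (chr9:67022590-67049406, minus strand), which yields muscle and non-muscle forms by splicing, stood at 678 and 491 CPM against 415 and 517 CPM. It was the only gene of the set whose groups overlapped. The log2 fold change of 0.30 ± 0.19 (SE, edgeR adjusted p = 0.557) was 0.02 without Runx1 replicate 1 and was 0.49 without Runx1 replicate 2. Under spike-in scaling Tpm1 was called lower, at -0.95 (edgeR adjusted p = 0.0321), yet it lay above the median of all tested genes, -1.25. Tpm2 (chr4:43514711-43523765, minus strand), best known from muscle, was the scarcest tropomyosin. It stood at 106 and 96.4 CPM against 65.0 and 58.4 CPM, without overlap, and was not called (log2 fold change 0.68 ± 0.33, SE, edgeR adjusted p = 0.390).

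Within the tropomyosin counts of a library, Tpm3 took 21.2% and 27.2% with the Runx1 antibody, against 13.6% and 8.68% with IgG. Tpm4 took 29.4% and 31.7% against 45.1% and 46.9%. Tpm1 held a like share in both groups, at 42.6% and 34.3% against 35.7% and 39.9%. Counts of Tpm4 per Tpm3 count were 1.39 and 1.17 with the Runx1 antibody, against 3.32 and 5.41 with IgG, and this ratio stays the same under any scaling of the libraries. The exact permutation p for the shares of Tpm3 and Tpm4 and for their ratio was 0.333 each, the smallest possible, and 1 for the share of Tpm1. The counts are per gene and join all splice forms, so which form carried a difference was not measured.

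**Figure D2:**
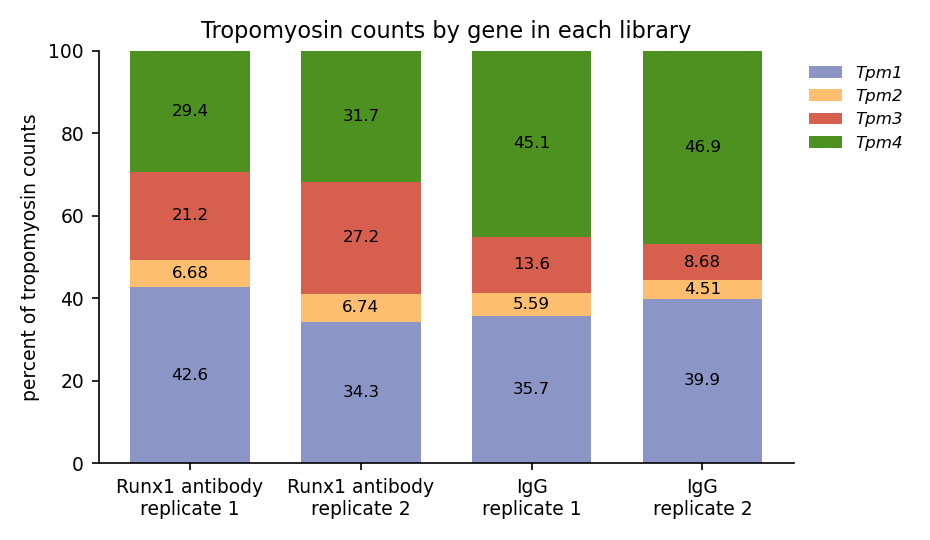
Share of each tropomyosin gene in the summed counts of Tpm1 to Tpm4, in percent, with 1 stacked bar per library. Tpm4 holds 29.4% and 31.7% in the Runx1 antibody bars and 45.1% and 46.9% in the IgG bars, while Tpm3 is larger in the Runx1 antibody bars; shares within a library do not move with its scaling.

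Vim (chr2:13573927-13582826, plus strand), the intermediate filament protein of endothelial and mesenchymal cells, stood at 620 and 676 CPM with the Runx1 antibody, against 276 and 351 CPM with IgG. The groups did not overlap, and the lower Runx1 library was 1.77 times the higher IgG library. The means were 648 ± 39.6 and 313 ± 52.8 CPM (SD, n = 2), a log2 fold change of 1.02 ± 0.17 (SE) or 2.03-fold. With an edgeR adjusted p of 0.0481 it was the call nearest to the threshold, and with the size factors of DESeq2 in the same edgeR test the adjusted p was 0.0516. Vim was counted 0.425 and 0.438 times per Actg1 count with the Runx1 antibody, against 0.306 and 0.375 times with IgG. Per spike-in count the values were 1.74 and 1.79 against 2.15 and 2.00.

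The tests differed in how many of the 10 genes they called. DESeq2 called 6 higher (Actb, Actg1, Cfl1, Pfn1, Tpm3 and Vim) and 1.85% of all genes. The limma-voom fit called 5 (Actb, Actg1, Cfl1, Tpm3 and Vim) and 0.823% of all genes. In the 4 edgeR fits that left out 1 library, log2 fold changes were 1.11 to 1.35 for Actb and 0.62 to 0.70 for Actg1. They were 1.16 to 1.65 for Tpm3 and 0.84 to 1.19 for Vim. In those fits the group with 1 library left is assumed to vary like the other group.

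The principal transcripts of the 10 genes had a median of 2025 bases and 51.2% GC, against 3076 bases and 49.3% GC over the genes tested. All 10 were shorter than that median, while Tpm3 (48.6%), Tmsb4x (46.4%) and Tpm4 (45.9%) lay below it in GC. A correction fitted to length and GC content in each library brought the median of the 10 genes from 0.74 to 0.51. After that correction Tpm3 stood at 1.30 ± 0.23 (edgeR adjusted p = 0.0581), Actb at 1.02 ± 0.18 (0.0668), Vim at 0.73 ± 0.18 (0.139) and Actg1 at 0.40 ± 0.11 (0.212). Vim depended on the transcript that stood for it: with the longest one, which differs from the principal one, it was 1.00 ± 0.18 (edgeR adjusted p = 0.0727). With either transcript none of the 10 genes was called, while with the principal one 0.258% of all genes were called higher. With the principal one 9 of the 10 stayed above 0, as did 6529 of all 12401 genes tested. The shortest transcripts are those of Tmsb4x (768 bases) and Pfn1 (861 bases), and Pfn1 moved from 1.09 to 0.62.

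**Figure D3:**
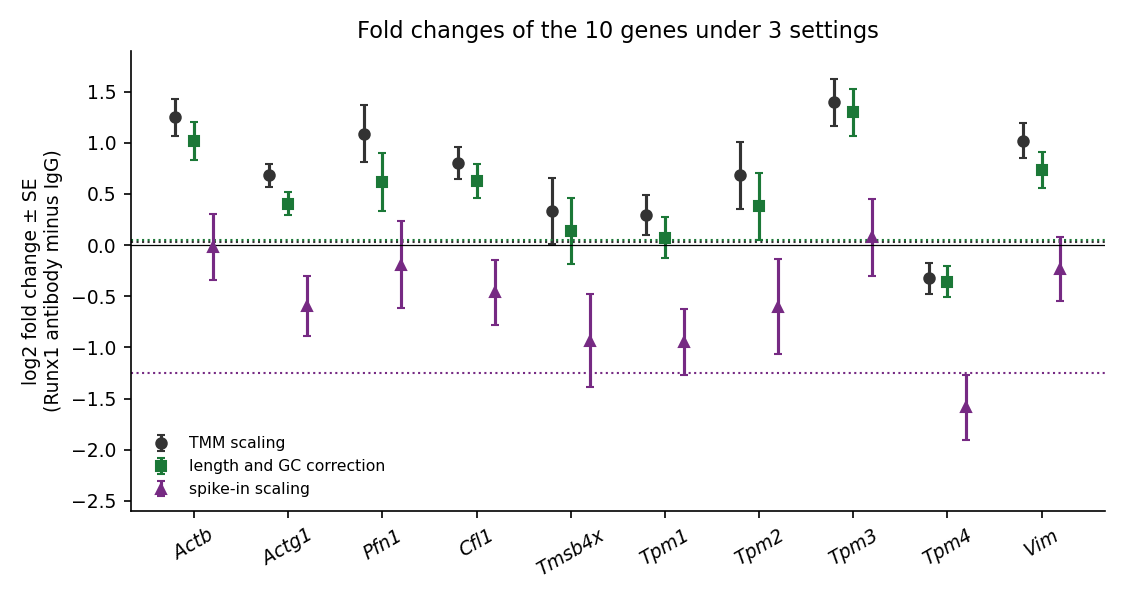
Log2 fold change (Runx1 antibody minus IgG) of each gene with its SE in edgeR fits with TMM scaling (black circles), with the length and GC correction (green squares) and with spike-in scaling (purple triangles); dotted lines give the median of all tested genes in each fit. The spike-in values lie lower for every gene, but so does their dotted line, at -1.25, and only Tpm4 lies below it.

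The summed level of the 10 genes was 5084 and 5063 CPM with the Runx1 antibody, against 3019 and 3338 CPM with IgG. The ratio of means was 1.60, or 0.68 on the log2 scale (exact permutation p = 0.333, two-sided, the smallest possible). Per spike-in count the 10 genes together gave 14.3 and 13.4 counts in the Runx1 libraries against 23.5 and 19.1 in the IgG libraries, so the direction turned to -0.61. Actg1 made up a like part of the sum in all libraries, at 28.7% and 30.5% against 29.8% and 28.0%. Actb made up 9.83% and 11.4% with the Runx1 antibody against 6.81% and 7.18% with IgG, and Tpm4 made up 9.20% and 8.97% against 17.4% and 18.2%.

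Levels were also ordered per kilobase of principal transcript, the scale on which genes can be set side by side. With the Runx1 antibody the mean levels were 769 CPM per kb for Actg1, 308 for Tpm1, 296 for Vim, 281 for Actb, 268 for Cfl1, 217 for Tpm4, 178 for Pfn1, 163 for Tpm3, 119 for Tmsb4x and 48.3 for Tpm2. From Tpm1 to Cfl1 each neighbour in this order overlapped the next. With IgG, Actg1 (470 CPM per kb) again came first and Tpm2 (29.4) last, but Tpm4 (266) and Tpm1 (245) followed Actg1, and Tpm3 (60.6) came just before Tpm2. Between them came Cfl1 (150), Vim (143), Actb (116), Tmsb4x (93.0) and Pfn1 (82.1), where only Cfl1 and Vim overlapped as neighbours, besides Tpm4 and Tpm1. The sheared cDNA need not cover transcripts evenly, so these levels are approximate.

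The 10 genes were also placed among the abundant genes of the table. Of the 2381 genes with a mean of at least 100 CPM, 7 had a larger log2 fold change than Tpm3, 18 a larger one than Actb, 64 than Vim and 202 than Actg1. Above Tpm4 there were 1536 of these genes.

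**Figure D4:**
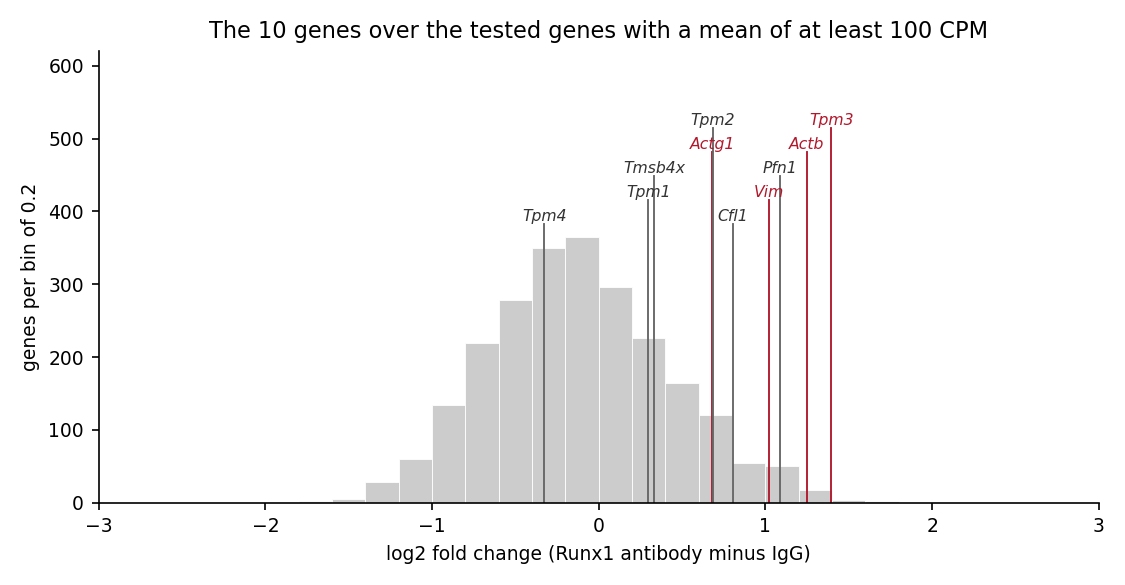
Histogram of the log2 fold change (Runx1 antibody minus IgG, TMM scaling) of the 2381 tested genes with a mean of at least 100 CPM, in bins of 0.2, with a line at the value of each of the 10 genes; red names were called higher. Tpm3, Actb, Pfn1 and Vim lie in the right tail and Tpm4 left of the centre; the lines of Actg1 and Tpm2 coincide, Tpm2 and Tmsb4x have means below 100 CPM, and all values but that of Tpm3 fall below 0 under spike-in scaling.

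The genes whose levels across the 4 libraries were most like those of Actb were Clta, Ccdc34, Rps3, Aldoa and H19. Likeness was the Euclidean distance between log2(CPM + 1) values centred on each gene, over 4 libraries and 2380 other genes with a mean of at least 100 CPM. Clta, a clathrin light chain, was nearest at 0.052, with 203 and 244 CPM with the Runx1 antibody, against 86.4 and 102 CPM with IgG. Aldoa, a glycolytic enzyme, was at 0.15, and H19, a long non-coding RNA of the embryo, at 0.19. Of the other genes of the set, Vim came 14th at 0.24 and Pfn1 23rd at 0.27, and Actg1 came 124th. This order is a description over 4 libraries, with no test.

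The wider actin machinery was read in the same fit. Beside the 10 genes, 9 lists held 112 tested genes, of which 0 were called higher and 1 (0.893%) lower in edgeR, near the 0.306% and 0.339% of all genes tested. An unadjusted p under 0.05 was reached by 12 (10.7%) in the higher and 2 (1.79%) in the lower direction, against 6.88% and 7.36% of all genes tested. The lists were drawn up with earlier results of these data known. Their median log2 fold change was 0.063, close to the 0.027 of all genes tested. Of the 112 genes, 64 lay above 0, against 6381 of all 12401 tested.

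The 6 other actin and actin-related genes tested were Acta1, Acta2, Actc1, Actl6a, Actr1a and Actr1b. Their median was 0.79 and 0 were called. Acta2, the smooth-muscle actin, stood at 57.3 and 51.9 CPM against 15.9 and 19.7 CPM (log2 fold change 1.59 ± 0.50, SE, edgeR adjusted p = 0.205). Actc1, the cardiac actin, stood at 104 and 121 CPM against 69.2 and 24.2 CPM (edgeR adjusted p = 0.307). Among 12 monomer binders and severers (median 0.32, 0 called), the twinfilin Twf2 stood at 60.3 and 56.2 against 13.8 and 23.8 CPM, and the coronin Coro1b at 47.7 and 56.2 against 20.3 and 3.22 CPM. Their edgeR adjusted p-values were 0.210 and 0.284.

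Genes that start, lengthen and cap filaments had medians at or below 0. The median was -0.04 over 18 genes of the Arp2/3 complex and its activators, which branch filaments, -0.05 over 17 formins and elongation factors, and -0.30 over 11 filament end caps, with 0 called in each. Arpc1a, a subunit of Arp2/3, stood at 78.8 and 98.6 against 57.0 and 45.9 CPM, and its activator Wasf1 at 56.7 and 39.7 against 77.5 and 93.9 CPM. Enah, which lengthens filaments at the cell edge, stood at 754 and 721 against 814 and 916 CPM, and the formin-family gene Daam2 at 7.16 and 12.2 against 18.2 and 41.9 CPM. Among the caps, Tmod3 stood at 40.0 and 37.1 against 62.2 and 60.8 CPM and Add1 at 183 and 221 against 264 and 240 CPM. These 6 genes had edgeR adjusted p-values of 0.351 to 0.523.

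Proteins that bind along or cross-link filaments had a median of 0.47 over 23 genes, with 0 called. Of these, 17 lay above 0, against 6381 of all 12401 genes tested. Actn4, a non-muscle alpha-actinin that bundles filaments, came nearest to a call, at 287 and 363 against 141 and 92.7 CPM (log2 fold change 1.45 ± 0.26, SE, edgeR adjusted p = 0.0571). Caldesmon (Cald1), which binds actin together with tropomyosin, stood at 482 and 563 against 283 and 342 CPM (0.72 ± 0.18, edgeR adjusted p = 0.130). Both had non-overlapping groups. Tagln, a smooth-muscle marker of this list, had no count in any library.

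The motors of actin filaments were near the middle. Cytoplasmic myosin II had a median of 0.03 over 7 genes, with the light chain Myl6 at 81.2 and 103 against 60.9 and 47.1 CPM and the heavy chain Myh14 at 2.39 and 9.01 against 14.1 and 16.9 CPM. None of the 7 was called, and Myl6 and Myh14 had edgeR adjusted p-values of 0.405 and 0.548.

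The transcription factor SRF and its coactivators, which respond to free actin and drive actin genes, held the only call among the lists. Scai, a suppressor of the coactivator MRTF, was lower with the Runx1 antibody, at 87.7 and 65.7 against 244 and 224 CPM (log2 fold change -1.64 ± 0.26, SE, edgeR adjusted p = 0.0417). Its log2 fold change was -0.90 once length and GC content were corrected for. The coactivators Mrtfa (28.1 and 53.0 against 20.6 and 10.9 CPM) and Mrtfb (75.8 and 28.6 against 48.4 and 62.4 CPM) were not called. Among 13 other intermediate filament and lamin genes the median was 0.48 and 0 were called. Nefm, a neurofilament, stood at 134 and 134 against 35.1 and 59.2 CPM (1.48 ± 0.36, edgeR adjusted p = 0.124) and nestin (Nes), which assembles with vimentin, at 485 and 388 against 303 and 311 CPM (0.48 ± 0.18, edgeR adjusted p = 0.277).

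**Figure D5:**
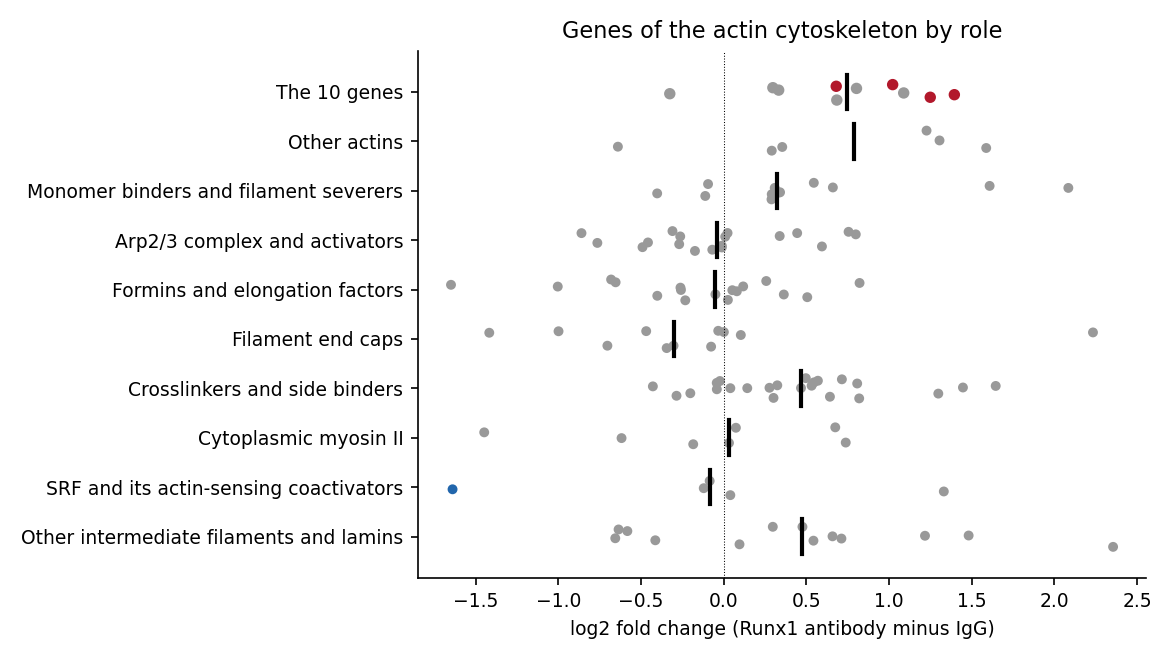
Log2 fold change (Runx1 antibody minus IgG, TMM scaling) of every tested gene in 9 lists of the actin and intermediate filament machinery and, in the top row, of the 10 genes described here; each point is a gene, with a small vertical scatter for display, and black bars are medians. Red points were called higher and the blue point, Scai, lower; the median of the top row is 0.74 and turns to -0.53 under spike-in scaling.

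Actins, tropomyosins and vimentin are made by many cells, so markers of the cell types that a Cd31+ sort could hold were read beside them. Primitive erythroid markers stood at a summed 864 and 868 CPM with the Runx1 antibody against 494 and 456 CPM with IgG, all 10 detected. All 7 that were tested lay higher without overlap, against 24.1% of all genes tested. Of these 7, 0 were called, against 0.306% of all genes called higher. Muscle markers summed to 1721 and 1689 against 1071 and 1284 CPM, with 11 of 11 detected. Most of that was Ttn, at 1597 and 1522 against 985 and 1180 CPM. Of the smooth-muscle markers, Myocd had 0 and 0 counts against 1 and 2, and Myh11 had 47 and 11 against 35 and 0. Macrophage markers, 8 of 8 detected, summed to 101 and 225 against 97.3 and 85.0 CPM. Csf1r held 272 of the counts in Runx1 replicate 2, against 20, 48 and 24 in the other libraries. The sum of the other 7 markers, taken after these values were seen, was 88.9 and 81.1 against 84.8 and 75.3 CPM, which overlapped. The erythroid, muscle and mesenchymal sums moved the same way as the 10 genes. The macrophage sum did so without overlap only with Csf1r included. The part of these markers in the result was not tested. With pull-down RNA alone and no input RNA analysed, the cells present, their RNA content and its recovery with the antibody cannot be told apart.

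Mesenchymal markers, of a cell type in which vimentin is prominent, are summed above. Their sum differed by 0.19 on the log2 scale, with both Runx1 libraries higher and 0 markers called. Of the 9 tested, 5 lay higher without overlap and 2 lower, against 24.1% and 21.3% of all genes tested. The 2 lower ones were Pdgfra (382 and 393 against 473 and 430 CPM) and Prrx1 (100 and 113 against 156 and 216 CPM). Epithelial markers (222 and 218 against 239 and 187 CPM) and neural markers (284 and 230 against 273 and 268 CPM), 8 of 8 detected in each, overlapped between groups. Megakaryocyte and platelet markers summed to 61.5 and 77.4 against 91.8 and 62.0 CPM, with 7 of 8 detected and Gp1bb at 0.

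RUNX proteins bind DNA at a short core motif, and a hexamer form of that core was counted in the RNAs recovered. Other forms of the core were not searched. The hexamers TGTGGT and its reverse complement ACCACA, read on the sense strand of the principal transcript, occurred 3 times in Actb and in Cfl1, 2 times in Actg1 and in Tpm4, 1 time in Pfn1, and not at all in Tpm1, Tpm2, Tpm3, Tmsb4x and Vim. Of 12396 tested genes with a transcript, 82.8% held at least 1 of them. Of the 4 genes called higher, Tpm3 and Vim held neither hexamer. A match of letters is a description of the sequence and not a binding site.

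Actin genes are classic targets of SRF, which binds the CArG box, so the promoters were searched for it. RefSeq windows on GRCm38.p6 of 250 bases before to 50 after a start site were found for 9 of the 10 genes, all but Actb. The CArG box, searched on both strands, occurred in 1 of these, Actg1, and in 1.63% of all 32851 windows of 300 bases. The 30 bases around the site of Actg1 lie at chr11:120348566-120348595 on the minus strand. The box begins 90 bases before the start site used for the RefSeq window. The stretch is shown because Actg1 is the most abundant gene of the set, with the box in capitals.
Actg1: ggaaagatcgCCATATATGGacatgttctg
The RUNX hexamers occurred in 16.8% of all windows on either strand, and among these genes in that of Tmsb4x alone.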

How the data were processed

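RNA recovered with a Runx1 antibody or IgG on protein A beads was reverse transcribed with a system made for single cells and the cDNA sheared before library construction, per the labels' protocols. The authors deposited whole-number, unnormalized counts for each Ensembl gene and for 92 spike-in rows. Trimmomatic 0.36, STAR 2.7.3a, Salmon 1.1.0 and mm10 are named, per the submitters' processing notes, without role or order. For the annotation, the strand setting and whether counts are reads or rounded estimates, the answer is not given in the sources used here. No molecular identifiers are named, so amplification error is not in the counting error, which was 1.70% to 8.30% per gene and library.

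Identifiers were matched to GENCODE M21 (55394 of 55573 found with a transcript). Library sizes left the spike-in rows out. The gene test was edgeR 4.0.16 under R 4.3.3 (quasi-likelihood, TMM, filterByExpr with a minimum count of 10, no block, two-sided, Benjamini-Hochberg over 12401 genes at 0.05), and the fit was tested on simulated data. Single values were compared by exact permutation over libraries. Length and GC content of the principal (APPRIS) transcript entered as offsets, from natural splines (5 degrees of freedom) fitted in each library. Other alternatives were DESeq2 1.42.0, limma-voom 3.58.1, DESeq2 size factors, library totals alone, spike-in scaling, no filter, 10 counts in all libraries, a replicate block, a null of 1.5-fold, a false discovery rate of 0.1, thinning to the smallest total, summing near-identical copies (blastn 2.17.0, 200 bases at 95%) and leaving out each library. The correction with the longest transcript was added after seeing the data, because the longest transcript of Vim and of Pfn1 is unlike the principal one.

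The 10 genes, the lists and the tests were chosen with earlier results of these data known. All 10 genes are named. From each actin list the text names every gene called and up to 2 others with the smallest p among those with a mean of at least 10 CPM, and the 5 genes most like Actb. A further list of actin genes is not reported here.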

Additional observations from a re-analysis of the deposited data

How the results depend on the processing

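The number of the 10 genes called higher, 4 with the planned edgeR fit, was 0 under spike-in scaling, a replicate block, the length and GC correction, that correction with the longest transcript or with the replicate block, and a null of 1.5-fold. It was 3 to 6 under the other settings that kept all libraries. The number called lower, 0, was 2 under spike-in scaling and stayed at 0 without any single library. The summed log2 difference of 0.68 turned to -0.61 under spike-in scaling and was 0.60 to 0.75 without single libraries. The log2 difference of the Actb to Actg1 ratio, 0.57, was 0.48 to 0.65 without single libraries. Spike-in scaling, which rests on 434 to 713 spike-in counts per library, also turned the log2 fold changes of Actb (-0.016), Actg1 (-0.59), Cfl1 (-0.46), Pfn1 (-0.19), Tmsb4x (-0.93), Tpm1 (-0.95), Tpm2 (-0.60) and Vim (-0.23). The cause was not tested.

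Over 12401 genes, edgeR called 38 higher and 42 lower. On the same genes the counts were 230 and 304 with DESeq2, 102 and 120 with limma-voom, 19 and 3914 with spike-in scaling, and 32 and 11 with the length and GC correction. They were 0 and 0 with edgeR's test against a null of 1.5-fold, where 465 and 415 had an unadjusted p under 0.05. Other settings tested other genes: 224 and 325 were called of 22242 with no filter, 125 and 159 of 9367 with 10 counts in all libraries, 55 and 65 of 11776 after thinning, and 95 to 248 and 81 to 352 of 13457 to 14207 without single libraries.

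The labels do not say whether the replicate numbers pair the libraries. Deviations of same-numbered libraries had a correlation of 0.0044 over the genes tested. That value rests on a single replicate difference per group, so it cannot tell whether they shared a sort. With the replicate block, the adjusted p was 0.0826 for Actb (log2 fold change 1.25), 0.117 for Actg1 (0.68), 0.146 for Tpm3 (1.41) and 0.114 for Vim (1.03), and 2 genes of the table were called higher and 0 lower. Counts of the 10 genes per library were 145 to 3463, and lowest for Tpm2, Tmsb4x and Pfn1, where counting error is largest.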
